A study of Rattus norvegicus with 15 samples.

Results

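Stellate cell and extracellular matrix genes were followed through the livers of rats fed a control diet, daidzein or genistein. The group holds 41 genes listed by name: markers of hepatic stellate cells, collagens, basement membrane proteins, proteoglycans, elastic fibre proteins, cross-linking enzymes, a matrix protease and its inhibitors, growth factor receptors and contractile proteins. Each gene was read from 1 probe set, the set of oligonucleotides on the array that reports a transcript, taken as the one with the highest mean over the 15 arrays among those annotated to that gene alone. Such a probe set was found for 40 of the 41 genes, out of 14217 genes represented in this way on the array, and the annotation used here gave none for Thbs1. Of these 40 genes, 37 passed the filter on low signal and were tested, while Fbln1, Lum and Postn lay below it.

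The animals were male Sprague-Dawley rats that entered the experiment at 4 weeks of age, adapted for 5 days and then ate their diet for 14 days. The 3 diets were a control free of isoflavones, the same diet with 2 g/kg daidzein and the same diet with 2 g/kg genistein, with 5 liver arrays each. Casein at 200 g/kg, corn starch at 150 g/kg and palm oil at 100 g/kg were common to all of them. The controls too were therefore on this base. Arrays are named here by diet and by the replicate number in their titles, which call them biological replicates. Daidzein and genistein are isoflavones of soy, and genistein carries an additional hydroxyl group.

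Hepatic stellate cells lie between the sinusoidal endothelium and the hepatocytes, where they store vitamin A as retinyl esters. When the liver is injured they turn into contractile, matrix-producing myofibroblasts, and portal fibroblasts can do the same. In a healthy liver these cells are few and the fibrous matrix is scant, confined largely to portal tracts, vessel walls and a thin layer along the sinusoids. Hepatocytes provide most of the RNA of the whole tissue, and in such bulk samples fewer cells of a type and less RNA per cell cannot be told apart.

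Deposited scores were brought back to a log2 scale, on which the zero is arbitrary, so the level of a probe set is not set against that of another. Differences between diets are log2 differences from a limma model fitted to all tested probe sets, and a gene is said to be called where its Benjamini-Hochberg adjusted p among the 18625 tested probe sets was under 0.05. The comparisons of daidzein and of genistein with control share the 5 control arrays.

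Promoter sequence was matched by gene ID in RefSeq (build GRCr8) for 27 of the 40 genes with a probe set. Stretches are shown for 4 of them, picked for the expression results given below on these genes. They are Sparc and Loxl1, whose daidzein arrays lay apart from the control arrays by the probe sets used. The others are Col1a2, a type I collagen chain, and the interval shared by Col4a1 and its partner. Each is printed from 5′ to 3′ on the strand of the named gene. The first 3 are the 250 bases before the annotated start site, at chr10:40038817-40039066 (minus strand) for Sparc, chr8:67612225-67612474 (minus strand) for Loxl1 and chr4:33518307-33518556 (plus strand) for Col1a2. The last is the interval of 76 bases at chr16:84885521-84885596 (plus strand of Col4a1) that separates the start site of Col4a2, read from the opposite strand, from that of Col4a1. Capitals mark a match on either strand to the TATA box as TATAAA, to the CAAT box as CCAAT or to the GC box as GGGCGG, which share no overlap in these stretches.
Sparc: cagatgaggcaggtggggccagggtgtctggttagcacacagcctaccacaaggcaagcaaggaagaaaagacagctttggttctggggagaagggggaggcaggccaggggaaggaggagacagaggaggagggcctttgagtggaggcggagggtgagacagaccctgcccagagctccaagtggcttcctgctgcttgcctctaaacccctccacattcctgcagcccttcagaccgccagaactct
Loxl1: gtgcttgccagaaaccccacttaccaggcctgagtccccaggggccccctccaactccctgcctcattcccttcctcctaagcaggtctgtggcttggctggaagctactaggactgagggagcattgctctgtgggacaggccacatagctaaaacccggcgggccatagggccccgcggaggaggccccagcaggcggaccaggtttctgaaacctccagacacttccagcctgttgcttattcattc
Col1a2: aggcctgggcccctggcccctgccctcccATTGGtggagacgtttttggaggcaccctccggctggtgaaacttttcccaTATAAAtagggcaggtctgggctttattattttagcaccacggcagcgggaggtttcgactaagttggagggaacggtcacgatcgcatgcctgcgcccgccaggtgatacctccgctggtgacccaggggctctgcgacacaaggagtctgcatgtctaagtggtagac
Col4a1: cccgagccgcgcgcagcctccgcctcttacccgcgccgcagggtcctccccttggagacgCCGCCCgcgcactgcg
The Col1a2 stretch held a TATAAA on the strand of the gene, beginning 170 bases before the annotated start, and a CCAAT on the opposite strand. The interval between both type IV collagen genes held a GGGCGG on the opposite strand, which 18.1% of all RefSeq rat promoters hold in a window of that length. None of the 3 motifs was found in the Sparc and Loxl1 stretches. Over windows of 250 bases, TATAAA occurred in 3 of the 27 members (11.1%) and in 12.9% of all 33469 promoters. CCAAT occurred in 10 members (37.0%) and in 34.0% of all, and GGGCGG in 16 members (59.3%) and in 30.5% of all. The 33469 were all promoters of the reference, not limited to genes with a probe set, while each member counted once. These matches describe letters in a window and were not tested.

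None of the 37 tested members was called in any of the 3 comparisons. Over the whole table, 0.0161% of probe sets were called for daidzein against control, 0.322% for genistein against control and 0.113% for genistein against daidzein, so calls were rare throughout. The lowest adjusted p of a member by limma was 0.285, 0.263 and 0.151, in the same order. At an unadjusted limma p under 0.05, 9 members were lower with daidzein than in controls, namely Acta2, Col14a1, Col18a1, Col3a1, Dcn, Lox, Loxl1, Reln and Sparc, and no member was higher. The same threshold took 4.14% of all probe sets on the lower side and 4.10% on the higher side. With genistein 4 members were lower than in controls at this level (Acta2, Lox, Loxl1 and Sparc) and none higher, against 5.50% and 5.45% of all probe sets. Between the isoflavones, Col14a1, Col1a2, Col3a1 and Reln were higher with genistein at this level and none lower, where 4.64% and 4.73% of all probe sets were.

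Most differences among the members were small. The median over the 37 was -0.08 for daidzein minus control, with 27 of them lower, and -0.04 for genistein minus control, with 21 lower. It was 0.07 for genistein minus daidzein, with 26 higher. The median over all 18625 probe sets lay within 0.001 of 0 in each comparison. With daidzein 49.9% of all probe sets and 73.0% of the members were lower than in controls, and with genistein 50.0% and 56.8%. For the members these counts were 27 to 30 with daidzein and 18 to 23 with genistein under 4 other scalings, so the balance of directions with genistein changed with the scaling. Between the isoflavones 50.2% of all probe sets and 70.3% of the members were higher with genistein. In size, 25, 31 and 30 of the 37 members differed by less than 0.2. The median half-width of a member's 95% confidence interval was 0.22. The whole interval lay between -0.5 and 0.5 for 29 members with daidzein, for 30 with genistein and for 29 between the isoflavones. These counts rest on 1 probe set per gene. Second probe sets of Col5a2 and Sparc gave intervals past that limit with daidzein, at -0.74 to -0.17 and -0.56 to -0.04, as did further probe sets of Mmp2 and Timp3.

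**Figure D1:**
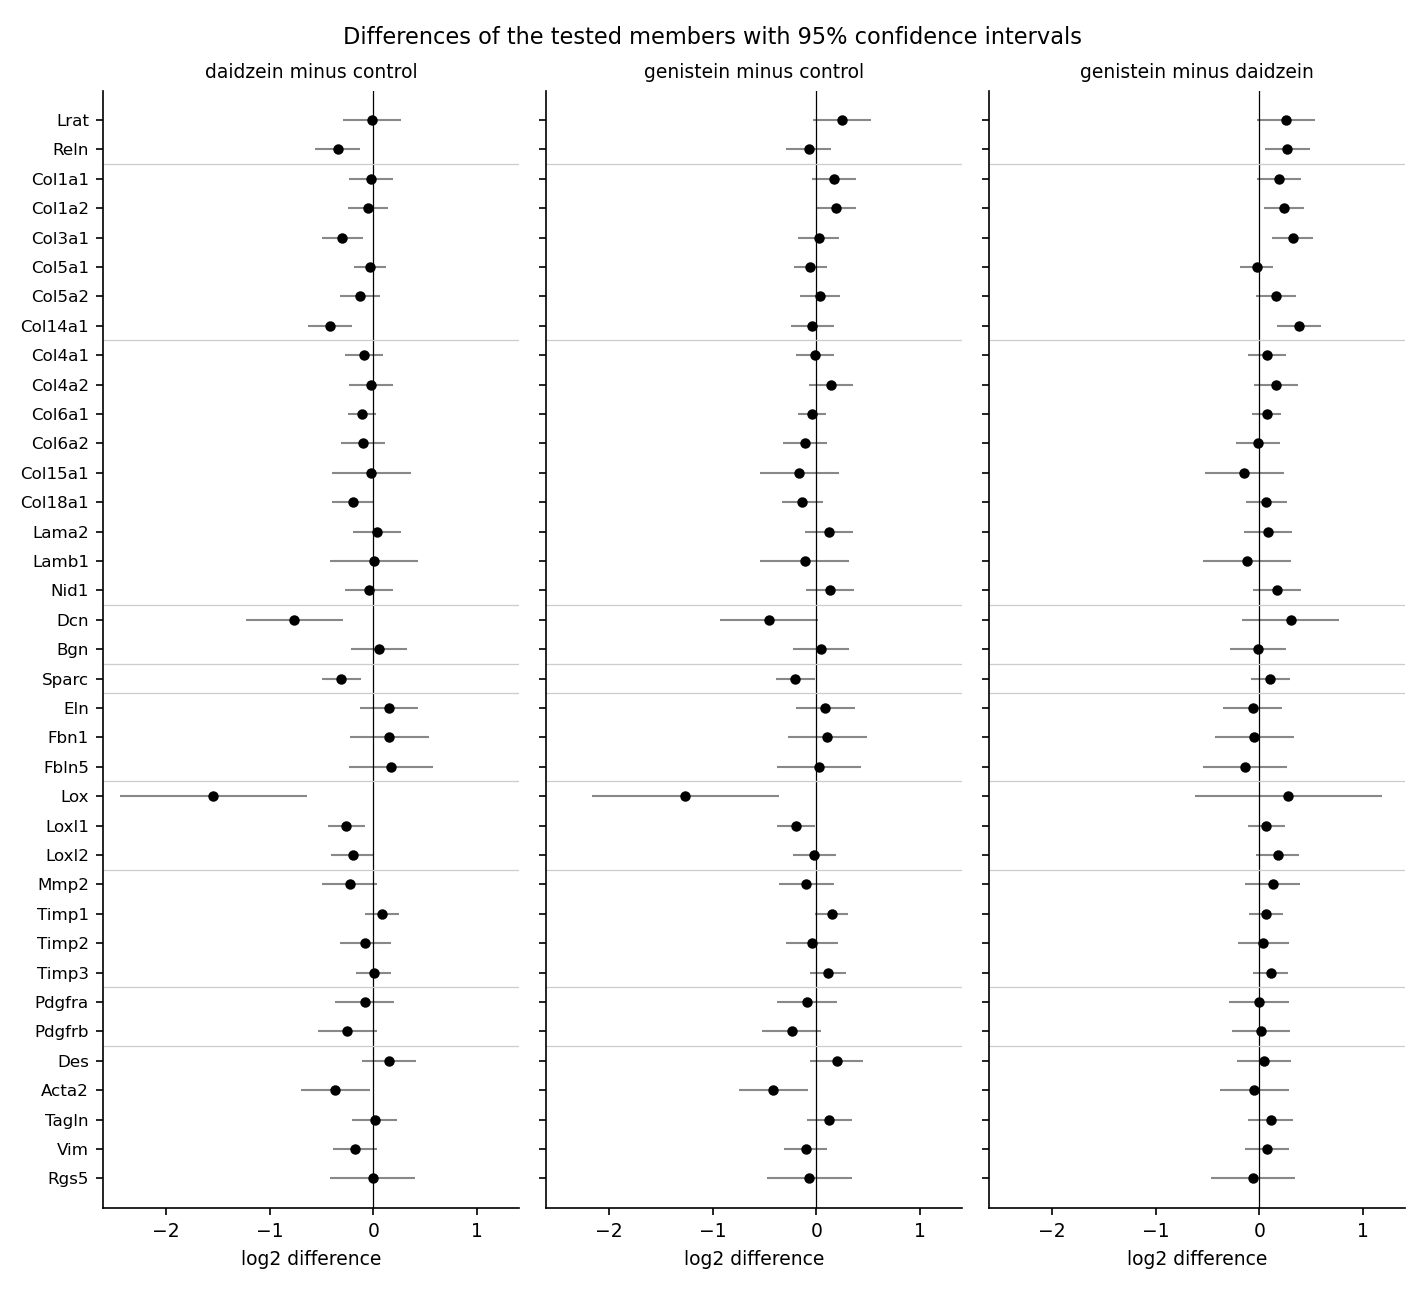
Log2 differences of the 37 tested members (points) with 95% confidence intervals from the limma fit (lines), ordered by role, for daidzein minus control, genistein minus control and genistein minus daidzein; grey rules separate the roles. Most points lie within 0.2 of 0, and Lox is farthest to the left, at -1.54 with daidzein and -1.26 with genistein.

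Among the markers of stellate cells, Reln encodes reelin, a secreted glycoprotein that stellate cells make in the liver. The control arrays of Reln stood at 3.62, 3.26, 3.56, 3.49 and 3.46, the daidzein arrays at 2.87, 3.44, 3.02, 3.21 and 3.13, and the genistein arrays at 3.37, 3.46, 3.51, 3.39 and 3.28. All daidzein arrays but daidzein 2 were below every control array, and the genistein arrays lay among the controls. Reln differed by -0.34 ± 0.10 (SE, n = 5 per diet) with daidzein, with a limma adjusted p of 0.382, and by -0.08 with genistein. A second Reln probe set gave -0.18 for daidzein. Lrat makes the retinyl esters that stellate cells store. Its control arrays stood at 1.28, 1.26, 1.77, 1.51 and 1.46, its daidzein arrays at 1.52, 1.16, 1.49, 1.51 and 1.53, and its genistein arrays at 1.44, 1.90, 1.92, 1.40 and 1.84. Genistein arrays 2, 3 and 5 were above every other array, and genistein 1 and 4 were within the control range. Lrat differed by 0.25 (95% interval -0.03 to 0.53) with genistein and by -0.01 (-0.29 to 0.27) with daidzein.

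The fibrillar collagens form the scar of a fibrotic liver, and the fibril-associated Col14a1 coats their fibrils. All 6 chains measured were lower on average with daidzein than in controls, by a median of -0.09, and 4 of 6 were higher with genistein, none of them called. All 6 were lower with daidzein under 4 other scalings too, while 3 to 5 were higher with genistein. The control arrays of Col14a1 stood at 2.58, 2.29, 2.77, 2.52 and 2.51, the daidzein arrays at 2.26, 2.05, 1.97, 1.97 and 2.34, and the genistein arrays at 2.55, 2.40, 2.58, 2.44 and 2.52. Every genistein array was above every daidzein array, and control 2 was the single control array within the daidzein range. Col14a1 differed by -0.42 ± 0.10 (SE, n = 5) with daidzein, the member of lowest limma adjusted p there (0.285), and by -0.04 with genistein. Its second probe set gave -0.22 with daidzein and had overlapping arrays.

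Col3a1 is the chain of type III collagen, which accompanies type I in reticular fibres. It stood at 5.12, 5.32, 5.25, 5.23 and 5.14 in controls, at 4.87, 4.79, 4.96, 4.73 and 5.20 with daidzein, and at 5.22, 5.34, 5.32, 5.04 and 5.24 with genistein. Daidzein 5 lay within the control range, and the other daidzein arrays were below all control and all genistein arrays. The difference was -0.30 (95% interval -0.50 to -0.10, limma adjusted p = 0.384) with daidzein and 0.02 (-0.17 to 0.22) with genistein. Type I collagen, the main fibrous collagen, is built from Col1a1 and Col1a2 chains. Col1a1 stood at 1.41, 1.79, 1.44, 1.42 and 1.49 in controls, at 1.41, 1.51, 1.67, 1.40 and 1.44 with daidzein, and at 1.60, 1.61, 1.52, 1.94 and 1.71 with genistein. Apart from control 2, all controls were below the lowest genistein array. Col1a2 stood at 2.53, 2.83, 2.58, 2.60 and 2.63 in controls, at 2.56, 2.67, 2.69, 2.48 and 2.50 with daidzein, and at 2.83, 2.71, 2.85, 3.07 and 2.64 with genistein. The genistein difference was 0.17 (-0.04 to 0.38) for Col1a1 and 0.19 (-0.0026 to 0.38) for Col1a2, and the daidzein difference was -0.02 and -0.05. Col5a1 and Col5a2, chains of the type V collagen that starts fibrils, differed from control by between -0.13 and 0.03. A second probe set of Col5a2, with a lower mean, gave -0.45 for daidzein (limma adjusted p = 0.382), so that the probe sets of this gene differ in size.

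**Figure D2:**
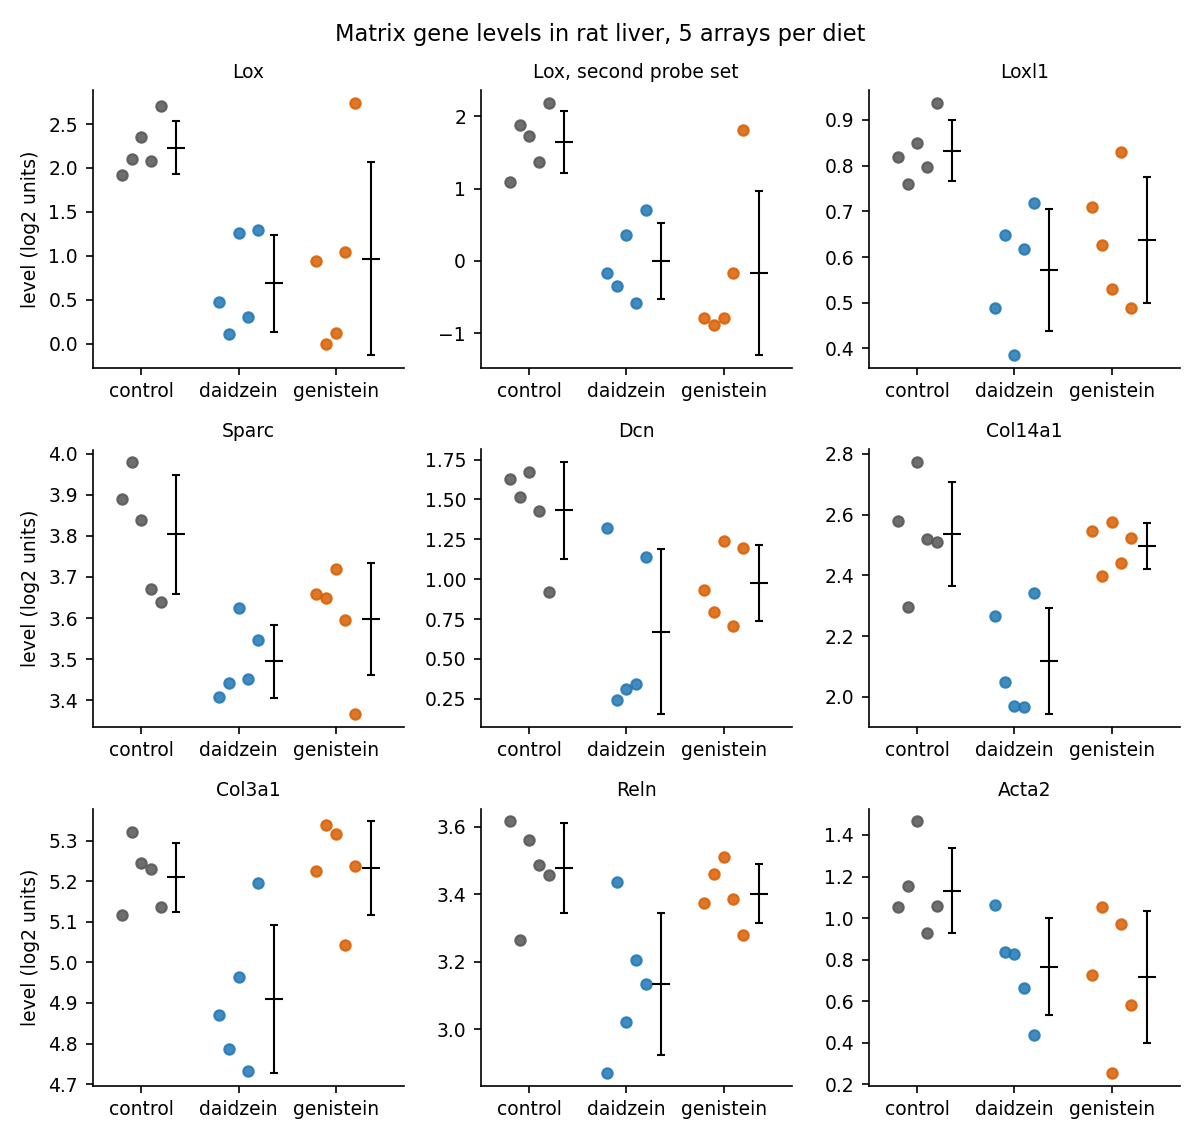
Levels in log2 units (vertical axes, which do not start at 0 and differ between panels) of Lox by both of its probe sets, Loxl1, Sparc, Dcn, Col14a1, Col3a1, Reln and Acta2 on the 5 arrays of each diet; points are arrays in the order of their replicate numbers, and black marks are the mean ± SD. The daidzein arrays of Lox, Loxl1 and Sparc lie wholly below the control arrays, and genistein 5 is high for Lox in both panels.

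Whether chains of a collagen, or proteins that assemble or are used together, also moved together from array to array was examined in 10 pairs. Col1a1 and Col1a2 did, with r = 0.831 over 15 arrays (permutation p = 0.00029, adjusted over the 10 pairs 0.0029) and rho = 0.850 (permutation p = 0.00015, adjusted 0.0015). After the mean of each diet was subtracted r was 0.751, and without control 2 and genistein 4, the arrays farthest from the Col1a1 median, it was 0.611. Col1a1 and Col3a1 gave r = 0.222 (permutation p = 0.430, adjusted 0.684). Col4a1 and Col4a2, the chains whose start sites are separated by 76 bases, gave r = -0.462 (permutation p = 0.0812, adjusted 0.308) and rho = -0.496 (permutation p = 0.0619, adjusted 0.252). With the mean of each diet subtracted r was -0.649, without control 1 and genistein 1 it was -0.229, and it lay between -0.463 and 0.158 under other scalings. The remaining pairs were Col5a1 and Col5a2, Col6a1 and Col6a2, Dcn and Lum, and Acta2 and Tagln. Further ones were Eln and Fbln5, Pdgfra and Pdgfrb, and Lrat and Reln. The adjusted permutation p of these 7 pairs lay between 0.308 and 0.760 for r. The arrays of a pair share RNA, labelling and scaling, and every probe set has its own error.

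**Figure D3:**
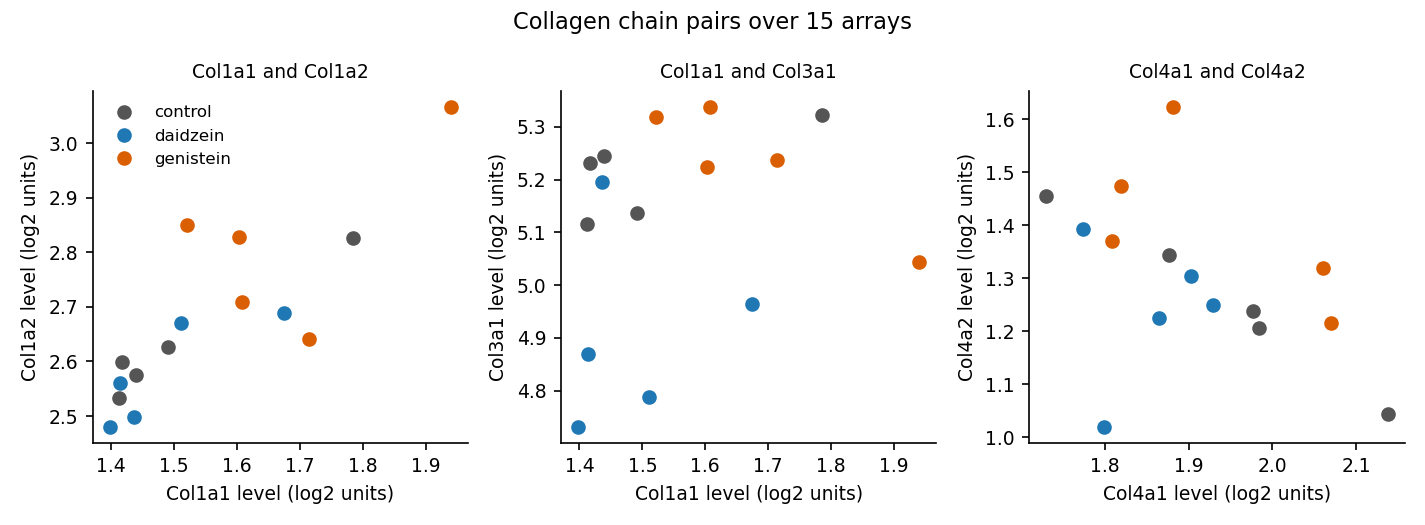
Levels in log2 units of Col1a2 against Col1a1 (left), Col3a1 against Col1a1 (middle) and Col4a2 against Col4a1 (right), 1 point per array and coloured by diet. Points of the left panel rise together (r = 0.831), with genistein 4 at the top right, and those of the middle panel do not line up (r = 0.222).

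Basement membrane proteins form the thin sheet under endothelium and around vessels, and the type VI collagens form beaded filaments nearby. The 9 members tested had medians of -0.04 with either isoflavone, none was called, and differences lay between -0.20 and 0.03 with daidzein and between -0.16 and 0.14 with genistein. Col4a1, a chain of the type IV collagen network, stood at 2.14, 1.73, 1.98, 1.88 and 1.98 in controls, at 1.80, 1.86, 1.90, 1.77 and 1.93 with daidzein, and at 2.07, 1.82, 1.88, 2.06 and 1.81 with genistein. Its diets overlapped throughout, with differences of -0.09 (95% interval -0.27 to 0.10) and -0.01 (-0.20 to 0.17). Col18a1, the precursor of endostatin, which hepatocytes also make, was at -0.20 (-0.40 to -0.0038) with daidzein and at -0.14 with genistein. A second Col18a1 probe set gave -0.07 (-0.38 to 0.25) and -0.07. Col6a1 had the smallest spread of all members, with an SD of 0.07 within diets, and differed by -0.11 (-0.25 to 0.03) with daidzein. Col4a2, Col6a2, Col15a1, Lama2, Lamb1 and Nid1, which include laminin chains and the linker nidogen, all had intervals that span 0 in each comparison for the probe sets used. The second Nid1 probe set went the other way with daidzein, at 0.23 (0.04 to 0.41, limma adjusted p = 0.521) against -0.04.

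Decorin, encoded by Dcn, is a small proteoglycan that binds collagen fibrils and is a common marker of fibroblasts and stellate cells. Dcn stood at 1.63, 1.51, 1.67, 1.43 and 0.92 in controls, at 1.32, 0.24, 0.31, 0.34 and 1.14 with daidzein, and at 0.93, 0.80, 1.24, 0.70 and 1.20 with genistein. Daidzein 1 and 5 were within the control range, and the other 3 daidzein arrays were below all arrays of the other diets. Its difference was -0.76 ± 0.22 (SE, n = 5, 1.69-fold lower on average) with daidzein, limma adjusted p = 0.382, and -0.46 with genistein, limma adjusted p = 0.468. Biglycan (Bgn), a related proteoglycan, differed by 0.06 and 0.04. Lumican (Lum) was below the filter, with levels from -3.15 to -0.31 over the 15 arrays.

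Sparc is a matricellular protein, one that modulates cell contacts with the matrix without building it. Sparc stood at 3.89, 3.98, 3.84, 3.67 and 3.64 in controls, at 3.41, 3.44, 3.62, 3.45 and 3.55 with daidzein, and at 3.66, 3.65, 3.72, 3.60 and 3.37 with genistein. All 5 daidzein arrays were below all 5 control arrays, and the gap between them was narrow (3.62 for daidzein 3 against 3.64 for control 5). The difference was -0.31 ± 0.09 (SE, n = 5, limma adjusted p = 0.382) with daidzein and -0.21 (limma adjusted p = 0.410) with genistein. The second Sparc probe set gave -0.30 and -0.11, and on it the daidzein and control arrays overlapped. Periostin (Postn), which is made mainly in injured tissue, was below the filter, with levels from -2.39 to -0.80.

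Lysyl oxidases cross-link collagen and elastin. Lox had the widest spread of the tested members, with an SD of 0.73 within diets against a median of 0.15 over the tested members. Lox stood at 1.92, 2.10, 2.35, 2.08 and 2.70 in controls, at 0.48, 0.11, 1.26, 0.30 and 1.29 with daidzein, and at 0.94, -0.0034, 0.12, 1.05 and 2.74 with genistein. Every daidzein array was below every control array, and so were 4 of the 5 genistein arrays, while genistein 5 was above them all. The difference was -1.54 ± 0.42 (SE, n = 5, 2.91-fold lower on average, limma adjusted p = 0.346) with daidzein and -1.26 ± 0.42 (SE, n = 5, 2.40-fold lower, limma adjusted p = 0.263) with genistein. A second Lox probe set gave -1.66 (limma adjusted p = 0.346) and -1.82 (limma adjusted p = 0.103), with genistein 5 again high at 1.81 and the other genistein arrays between -0.88 and -0.17. Without genistein 5 the genistein difference of Lox became -1.70 with a limma adjusted p of 0.0351, and that of the second probe set -2.30 with a limma adjusted p of 0.00573. This was the single case in which leaving out an array or changing the processing made a member called.

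Loxl1, the lysyl oxidase of elastic fibres, stood at 0.82, 0.76, 0.85, 0.80 and 0.94 in controls, at 0.49, 0.65, 0.39, 0.62 and 0.72 with daidzein, and at 0.71, 0.63, 0.53, 0.83 and 0.49 with genistein. Its daidzein arrays were all below its control arrays, and genistein 4 alone of the genistein arrays reached the control range. The difference was -0.26 ± 0.08 (SE, n = 5, limma adjusted p = 0.418) with daidzein and -0.20 (limma adjusted p = 0.410) with genistein. By the probe sets used, Lox, Loxl1 and Sparc were thus the 3 members of 37 whose daidzein arrays lay wholly below the control arrays. None lay wholly above them, and 0.940% of all probe sets lay wholly apart in each direction. The second probe set of Lox also had its daidzein arrays wholly below control, and that of Sparc did not. No member's genistein arrays lay wholly apart from the control arrays, where 1.21% of all probe sets lay above and 1.35% below. Loxl2 differed by -0.20 (95% interval -0.41 to 0.01) with daidzein and -0.02 with genistein. The elastic fibre proteins themselves, Eln, Fbn1 and Fbln5, were higher on average with both isoflavones, by 0.15 to 0.17 with daidzein and by 0.03 to 0.11 with genistein, and all 6 intervals span 0. Second probe sets went the other way with daidzein, at -0.07 for Fbn1, with a spread within diets of 0.09 against 0.30 (SD) for the one used, and at -0.03 for Eln. Without normalization between arrays 1 of the 3 was lower with genistein. Fbln1, a further fibulin, was below the filter at -1.29 to 0.42. Its means went the other way from those of Eln, Fbn1 and Fbln5, at -0.43 with daidzein and -0.49 with genistein against control, and were not tested.

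Mmp2 is a gelatinase that stellate cells secrete, and the Timp genes encode inhibitors of such proteases. Mmp2 differed by -0.23 (95% interval -0.49 to 0.03) with daidzein and by -0.10 with genistein, and its second probe set pointed the other way, at 0.18 and 0.46. Timp1, which is induced in fibrosis, differed by 0.09 (-0.08 to 0.25) and 0.15 (-0.02 to 0.31). Timp2 was at -0.08 and -0.04, and Timp3 at 0.0018 and 0.11. The receptors of platelet-derived growth factor drive stellate cell proliferation, and Pdgfra was at -0.09 with either isoflavone. Pdgfrb was at -0.25 (-0.53 to 0.03) with daidzein and -0.24 (-0.52 to 0.04) with genistein, and its other probe sets gave -0.37 and 0.20 for daidzein.

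Among the contractile and cytoskeletal proteins, Acta2 encodes smooth muscle actin, the usual mark of an activated stellate cell and of vessel walls. Acta2 stood at 1.05, 1.15, 1.47, 0.93 and 1.06 in controls, at 1.06, 0.84, 0.83, 0.66 and 0.44 with daidzein, and at 0.73, 1.05, 0.25, 0.97 and 0.58 with genistein. The diets overlapped, with 4 of 5 daidzein arrays and 3 of 5 genistein arrays below the lowest control array. The differences were -0.37 (95% interval -0.70 to -0.03, limma adjusted p = 0.575) and -0.42 (-0.75 to -0.08, limma adjusted p = 0.331). Des, the muscle filament desmin, by which rat stellate cells are recognised, stood at -0.47, -0.34, -0.37, -0.13 and -0.05 in controls, at -0.09, -0.32, -0.11, 0.08 and -0.19 with daidzein, and at -0.16, -0.38, -0.13, 0.29 and -0.02 with genistein. All diets overlapped for Des, with differences of 0.15 (-0.11 to 0.41) and 0.19 (-0.07 to 0.45). Tagln, which is also a smooth muscle gene, was at 0.01 and 0.12, Vim, a filament of mesenchymal cells, at -0.18 and -0.10, and Rgs5, a pericyte regulator, at -0.01 and -0.07.

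Daidzein and genistein were fed at the same 2 g/kg for the same 14 days, so the pair could be compared directly. No member differed between them at an adjusted p under 0.05. Col14a1 differed most by test, at 0.38 (95% interval 0.17 to 0.59, limma adjusted p = 0.151) higher with genistein, and its arrays did not overlap. Its second probe set gave 0.12 (-0.15 to 0.38, limma adjusted p = 0.852) with overlapping arrays. By the probe sets used, Col14a1 was the single member of 37 with all genistein arrays above all daidzein arrays. None had them all below, where 0.966% of all probe sets lay wholly above and 1.06% wholly below. Col3a1 differed by 0.32 (0.13 to 0.52, limma adjusted p = 0.208), Reln by 0.27 (0.05 to 0.48), Lrat by 0.26 (-0.02 to 0.54), Col1a2 by 0.24 (0.05 to 0.43) and Col1a1 by 0.19 (-0.02 to 0.40). For Lox, the interval of the difference was wide (0.28, -0.62 to 1.18), while for Acta2 it was -0.05 (-0.38 to 0.28), for Sparc 0.10 (-0.08 to 0.29) and for Loxl1 0.07 (-0.11 to 0.25).

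Related pathways were described from 7 lists of further genes. In the TGF-beta and CCN list, the main route by which stellate cells are activated, 17 genes were tested and none was called. The medians were -0.01 with daidzein and -0.07 with genistein, and Ccn2 and Tgfb3 lay below the filter. The collagen folding and trimming list had 15 tested genes, none called, with medians of 0.03 and -0.04. Neither the growth factor list (6 tested), the further proteases and inhibitors (15 tested) nor the matrix receptors (15 tested) held a called gene. Fgf2, Hgf and Pdgfa of the growth factor list lay below the filter, as did 12 further proteases and inhibitors and 5 matrix receptors. Mmp14, a membrane protease that activates the Mmp2 protein, had the lowest p of its list, with 0.62 ± 0.22 (SE, limma adjusted p = 0.311) for genistein against control and 0.73 (limma adjusted p = 0.244) against daidzein.

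Of 26 further collagens and matrix glycoproteins, 1 was called, Omd (osteomodulin, a small leucine-rich proteoglycan like decorin). Omd stood at 2.05, 1.42, 1.56, 1.50 and 1.68 in controls, at 1.72, 0.68, 0.86, 0.97 and 1.61 with daidzein, and at -0.38, -0.04, 0.40, 0.86 and 0.81 with genistein. All genistein arrays were below all control arrays, and Omd was lower with genistein by -1.31 ± 0.25 (SE, n = 5, 2.48-fold, limma adjusted p = 0.0450). That call was lost under 3 of 8 other settings and on leaving out any of 13 of the 15 single arrays, with limma adjusted p up to 0.126. Ogn, another proteoglycan of this class, was at -0.59 and Sparcl1, a relative of Sparc, at -0.60 with daidzein (limma adjusted p = 0.341 and 0.382). Col4a5 was 0.62 higher with genistein than with daidzein (limma adjusted p = 0.153).

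Of 19 retinoid genes, 1 was called, Aldh1a1, a retinaldehyde dehydrogenase that hepatocytes express. Aldh1a1 stood at 1.92, 3.46, 2.35, 2.43 and 2.91 in controls, at 4.15, 3.61, 3.60, 4.09 and 4.37 with daidzein, and at 4.24, 4.93, 4.75, 3.48 and 4.29 with genistein. All arrays of both isoflavones were above all control arrays. It rose by 1.72 ± 0.30 (SE, n = 5, 3.30-fold, limma adjusted p = 0.0261) with genistein and stood 1.35 higher with daidzein, limma adjusted p = 0.238. The genistein call was lost under 3 of 8 other settings and on leaving out control 1, 3 or 4 or genistein 1, 2 or 3, with limma adjusted p up to 0.123 and 0.0909. Rdh5, a retinol dehydrogenase, was at -0.71 in genistein against daidzein (limma adjusted p = 0.0941).

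Marker lists of the cell types in liver were set beside the members, as the median deviation of each list from the control mean on each array. All 12 hepatocyte markers with a probe set passed the filter. Of 15 stellate cell markers with a probe set, 11 passed, and Hgf, Hhip, Nes and Ngfr did not. In this list 5 of the 11 are members, and its array medians ran from -0.06 to 0.05 in controls, from -0.24 to -0.05 with daidzein and from -0.11 to 0.10 with genistein. The medians over the members themselves ran from -0.05 to 0.07, from -0.13 to -0.03 and from -0.08 to 0.04. Of the 11 stellate cell markers tested, 9 were lower with daidzein and 9 with genistein, where 49.9% and 50.0% of all probe sets were. With daidzein 4 of them had an unadjusted limma p under 0.05, against 4.14% of all probe sets on the lower side and 4.10% on the higher. The daidzein difference of the list's array medians had an exact permutation p of 0.0317 (adjusted over 42 comparisons 0.556, two-sided). Colec11, a lectin of stellate cells, was at -0.27 ± 0.07 (SE, limma adjusted p = 0.346) with daidzein.

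Markers of Kupffer cells, the macrophages of the liver, were lower on average with daidzein, as most members were. All 11 markers were tested, and 10 were lower on average under each scaling, where 49.9% of all probe sets were lower in the main one. The median of the markers was -0.30 with daidzein. With genistein 9 of the 11 were lower on average under each scaling, where 50.0% of all probe sets were lower in the main one. Their median with genistein was -0.09. With daidzein 5 of these markers had an unadjusted limma p under 0.05, against 4.14% of all probe sets on the lower side and 4.10% on the higher. With genistein none had, against 5.50% and 5.45% of all probe sets. None of the markers was called. Their array medians ran from -0.09 to 0.17 in controls, from -0.39 to 0.01 with daidzein and from -0.35 to 0.25 with genistein, and the daidzein difference had an exact permutation p of 0.0397 (adjusted over 42 comparisons 0.556, two-sided). The 14 endothelial markers had medians of -0.0039 with daidzein and 0.02 with genistein, the 10 smooth muscle markers -0.04 and -0.09 and the 8 portal fibroblast markers 0.04 and 0.04. The part of these cell types in the members' values was not tested.

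**Figure D4:**
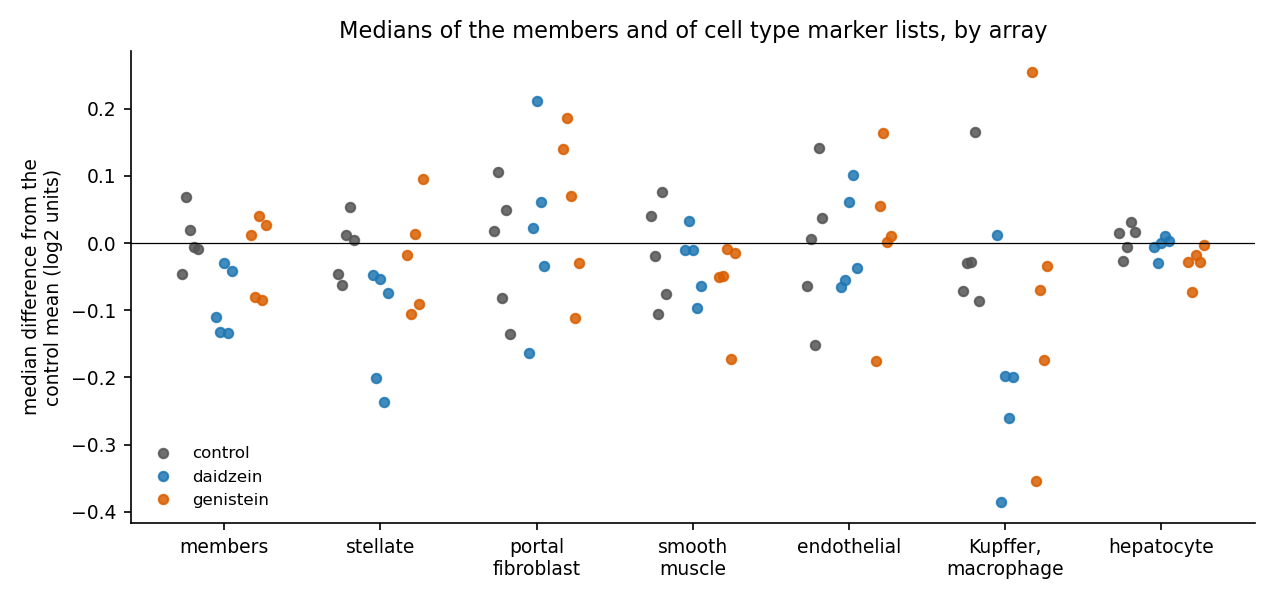
Median deviation from the control mean, in log2 units, of the 37 members and of marker lists of 6 cell types on each array (1 point per array, coloured by diet). The daidzein points of the members, the stellate list and the Kupffer list lie mostly below 0, while those of the endothelial and hepatocyte lists lie on both sides of it.

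Measures of array quality were as follows. Pearson correlations between arrays lay between 0.931 and 0.969 over the tested probe sets. Control 1 stood apart in the scale of its deposited values, 2.79 log2 units per deposited unit against at most 2.69 elsewhere, and without it no member was called either. The Gapdh 3′/5′ difference, a measure of RNA integrity, ran from 0.0035 to 0.08 in controls, from -0.06 to 0.03 with daidzein and from -0.06 to 0.10 with genistein, with an exact permutation p of 0.0238 for daidzein against control (two-sided, adjusted over 42 comparisons 0.556). The beta-actin 3′/5′ difference ran from 0.91 to 1.18 in controls, from 0.88 to 1.15 with daidzein and from 0.88 to 1.15 with genistein. For daidzein against control its exact permutation p was 0.571 (two-sided, adjusted over 42 comparisons 0.889). The part of these measures in the members' differences was not tested.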

How the data were processed

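Liver RNA of 15 rats was measured on 1-channel Affymetrix arrays, labelled in the 1-cycle protocol per the labels. The authors deposited 1 value per probe set and array, a score. The values show a log signal standardized per array: after exponentiation, all 636 gaps between often repeated values (at least 60 repeats) were whole steps within 0.001. Background correction, probe summary and genome build are not given in the sources used here. Scores were multiplied by 2.60 log2 units per deposited unit, a common factor that rests on this inference.

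Array medians differed by over 0.1, so arrays were quantile normalized. After removal of 57 control probe sets, those under the 40th percentile of average level were dropped and the remaining 18625 of 31042 tested with limma 3.58.1 (R 4.3.3) in a model of 3 diets over 15 arrays, adjusted by Benjamini-Hochberg. No tested probe set had a missing value. SE and 95% intervals are from this fit. Symbols came from the array annotation, matched to current names for 20764 of 20832 probe sets with 1 symbol.

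The design had allowed for this unit. Members, lists, pairs and tests were chosen with earlier results of these data known. Genes given array by array were those called, those with arrays wholly apart, the 8 of lowest p, and 8 chosen by name. From each list were named the called genes or at most 2 of lowest p per comparison. Array measures were compared by exact permutation over 252 arrangements and pairs by 100000 permutations. Title numbers were not used to pair arrays, and 1 of 15 same-numbered pairs had residuals correlating over 0.1 (r from -0.163 to 0.109). Differently numbered pairs were not set beside them, so a pairing is not excluded. Numbers in the sample descriptions differ from the title numbers for several arrays, and pairing by them was not examined. Steps were tested on simulated data. The number of arrays limits the precision.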

Additional observations from a re-analysis of the deposited data

Results flagged for a closer look

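Of 39 sets of 5 arrays examined (13 genes in 3 diets), 2 had an array far from the other 4 by Dixon's criterion, where chance gives about 1 in 20. Lrat stood at 1.16 on daidzein 2, and the other daidzein arrays lay between 1.49 and 1.53. Col1a1 stood at 1.79 on control 2, and the other control arrays lay between 1.41 and 1.49.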

How the results depend on the processing

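The count of called members stayed at 0 under all 9 other settings in all 3 comparisons: median centring, no normalization, a scale per array, 16 added to the intensities, no filter, a filter at the 60th percentile, the mean of a gene's probe sets, a fit of the 10 arrays compared and a replicate block. Leaving out 1 array gave 0 to 1 called members for genistein against control, the 1 being Lox without genistein 5, and 0 in the other comparisons. The median over the members lay between -0.10 and -0.06 for daidzein, between -0.04 and 0.00048 for genistein and between 0.07 and 0.10 for genistein minus daidzein under the other settings, and moved by less than the spread between arrays in each.

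The count of called probe sets over the whole table moved more. For genistein against control the 60 calls became 34 with median centring, 14 with no filter, 124 with the 60th percentile filter and 0 with the 10 arrays compared, and 10 to 203 on leaving out 1 array. For daidzein against control the 3 calls became 7 with the 60th percentile filter, and 2 to 8 on leaving out 1 array. For genistein against daidzein the 21 calls became 9 with median centring, 35 with 16 added, 3 with no filter, 67 with the 60th percentile filter and 2 with the 10 arrays compared, and 3 to 136 on leaving out 1 array. With the replicate numbers of the titles as a block, 17 were called for genistein against control and 2 for genistein against daidzein. The cause was not tested.

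Alternatives chosen after seeing the data concern the smaller counts. Members at an unadjusted limma p under 0.05 numbered 7 to 10 for daidzein, 2 to 6 for genistein (2 with median centring and without control 3) and 3 to 7 for genistein against daidzein (7 without daidzein 3). Members with daidzein arrays wholly below control numbered 2 to 5 (5 without control 2, daidzein 2 or daidzein 5). Those with genistein arrays wholly above daidzein numbered 0 to 3 (0 with median centring, 3 without daidzein 3), and with genistein arrays wholly below control 0 to 1 and wholly above 0 to 2 (2 without control 2). The matching shares of all probe sets are not given for these alternatives. With an array left out, the arrays of 2 diets lie wholly apart more easily. A larger count there is therefore not a sign that more members differ.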
